A study of Mus musculus with 12 samples.

Results

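Fibroblast growth factor (FGF) signaling was examined through 10 genes, found by matching the Ensembl identifiers of the deposited table of 54532 mouse genes to gene symbols. They comprised the ligands Fgf2, Fgf7 and Fgf10, the receptors Fgfr1, Fgfr2 and Fgfr3, and the feedback inhibitors Spry1, Spry2, Spry4 and Dusp6. Bone marrow mesenchymal stem cells (MSCs) were taken from 4-week-old C57BL/6 mice that were either Chd7 fl/fl (control, given as WT in the labels) or Prx1-cre;Chd7 fl/fl (labelled knockout), so that both groups carried the floxed alleles. In the latter, Cre is driven by a regulatory element of Prx1 that is active in early limb mesenchyme, and cells that never expressed Cre keep Chd7. Passage 3 cultures were placed in osteogenic medium (with dexamethasone at 10 nM, β-glycerophosphate at 10 mM and ascorbic acid at 50 µM) or in adipogenic medium (with dexamethasone at 1 µM, isobutylmethylxanthine at 0.5 µM and insulin at 10 µg/ml), and RNA was collected after 5 days. The design gave 4 groups of 3 libraries, and it asked how Chd7 deletion and the medium change the transcriptome. The sources do not tell whether libraries of a group came from different mice, so the p-values measure the spread between these libraries.

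FGF ligands bind receptor tyrosine kinases on the cell surface together with heparan sulfate chains. The receptors act through adaptors, RAS and the MAP kinases ERK1 and ERK2. Sprouty proteins and the phosphatase DUSP6, which inactivates ERK, are transcribed in response to the pathway and dampen it. In the skeleton, FGF signaling guides limb outgrowth, the growth plate and osteoblast maturation, and FGF2 is commonly added to MSC cultures to promote their proliferation.

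The promoters of Fgf2 and Spry1 are shown because both genes lie on the same strand of chromosome 3 and both were higher in libraries labelled knockout in each medium. That of Fgf7 is shown because its difference between the genotypes turned around between the media. Each is RefSeq sequence of GRCm38.p6 from 250 bases before to 50 bases after the annotated start site, on the gene's own strand, and capitals mark CpG dinucleotides. The Fgf2 window is chr3:37348403-37348702 on the plus strand, the Spry1 window is chr3:37639697-37639996 on the plus strand, and the Fgf7 window is chr2:126034408-126034707 on the plus strand.
Fgf2: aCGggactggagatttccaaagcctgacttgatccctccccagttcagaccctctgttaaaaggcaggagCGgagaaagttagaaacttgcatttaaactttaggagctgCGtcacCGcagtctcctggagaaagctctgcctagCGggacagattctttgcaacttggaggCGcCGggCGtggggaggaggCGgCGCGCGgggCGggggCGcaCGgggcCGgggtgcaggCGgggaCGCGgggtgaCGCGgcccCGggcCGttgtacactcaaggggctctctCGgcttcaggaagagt
Spry1: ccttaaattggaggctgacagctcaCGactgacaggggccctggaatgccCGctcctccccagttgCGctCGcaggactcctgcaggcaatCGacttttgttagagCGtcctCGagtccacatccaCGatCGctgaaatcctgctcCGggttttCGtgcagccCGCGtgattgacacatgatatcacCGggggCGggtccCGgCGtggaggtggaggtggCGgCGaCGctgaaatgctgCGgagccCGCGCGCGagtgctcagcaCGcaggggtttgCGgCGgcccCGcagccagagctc
Fgf7: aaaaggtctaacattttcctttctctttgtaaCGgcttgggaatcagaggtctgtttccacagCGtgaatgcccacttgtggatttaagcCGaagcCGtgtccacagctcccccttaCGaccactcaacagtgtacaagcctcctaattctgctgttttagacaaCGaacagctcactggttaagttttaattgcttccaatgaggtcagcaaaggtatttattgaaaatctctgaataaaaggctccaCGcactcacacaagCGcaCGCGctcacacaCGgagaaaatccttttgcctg

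The Fgf2 window held 24 CpG dinucleotides, a number that 20.1% of the 32544 distinct mouse promoter windows of this length in the same table reached. The Spry1 window held 29 (reached by 13%) and the Fgf7 window 11 (reached by 41.7%), against a median of 7 over all windows. The Fgfr2 window, not printed, held 4, and 37.7% of windows had no more than that. Windows of 8 of the 10 genes were examined, all but those of Fgfr1 and Spry4. They were searched on both strands for AGAACA, the half-site of the glucocorticoid receptor, whose ligand dexamethasone was in both media, and for AGGTCA, a half-site of other nuclear receptors. AGAACA was in 18.9% of all windows and in no window of these 8 genes. AGGTCA was in 16.2% of all windows and occurred in that of Fgf7, beginning 47 bases before the start site, and in that of Spry2, beginning 21 bases after it. TGANTCA (AP-1, in 7.79% of all windows), TGACGTCA (the cyclic AMP response element, 1.8%) and CCGGAAGT (ETS factors, 3.92%) were in none of them. The start sites of Fgf2 and Spry1 are 291 kb apart. The protein-coding genes annotated between them, Nudt6 and Spata5, had 0.552 to 1.71 FPKM and 3.43 to 4.71 FPKM over the 12 libraries. Spata5 too was higher in every library labelled knockout than in every control library of the same medium. It was at 3.53 to 3.81 and 4 to 4.17 FPKM in osteogenic medium, and at 3.43 to 4.04 and 4.17 to 4.71 FPKM in adipogenic medium, control first. Nudt6 overlapped between the genotypes in both media. No test of Spata5 is given here.

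Expression is given in FPKM, fragments per kilobase of gene scaled for depth, which allows levels of different genes to be set side by side. Differences are given on the scale of log2(FPKM + 1), which understates changes of low genes. They were tested with limma across the 12871 genes that reached 1 FPKM in at least 3 libraries, and a gene was called at an adjusted p under 0.05. In this fit all 4 groups share a single estimate of spread per gene. The spread among adipogenic libraries therefore also enters the intervals and p-values for osteogenic medium, and the reverse. A gene not called in osteogenic medium may still have groups that are well apart there. Of the 10 FGF genes, 8 entered the test, and Fgf10 and Fgfr3 were too low. Each library had 17496224 to 21099116 fragments on genes. Chd7 itself was at 2.64, 2.67 and 2.77 FPKM in control and at 2.03, 2.35 and 2.28 FPKM in libraries labelled knockout in osteogenic medium. Adipogenic control libraries had 2.26, 1.81 and 2.23 FPKM, and those labelled knockout 2.03, 2.35 and 2.48 FPKM. Neither difference passed the test (log2 difference -0.20, adjusted p = 0.16, and 0.09, adjusted p = 0.428), and in adipogenic medium the groups overlapped. A value over the whole gene includes exons outside the deleted one, so it does not check the genotype labels.

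**Figure D1:**
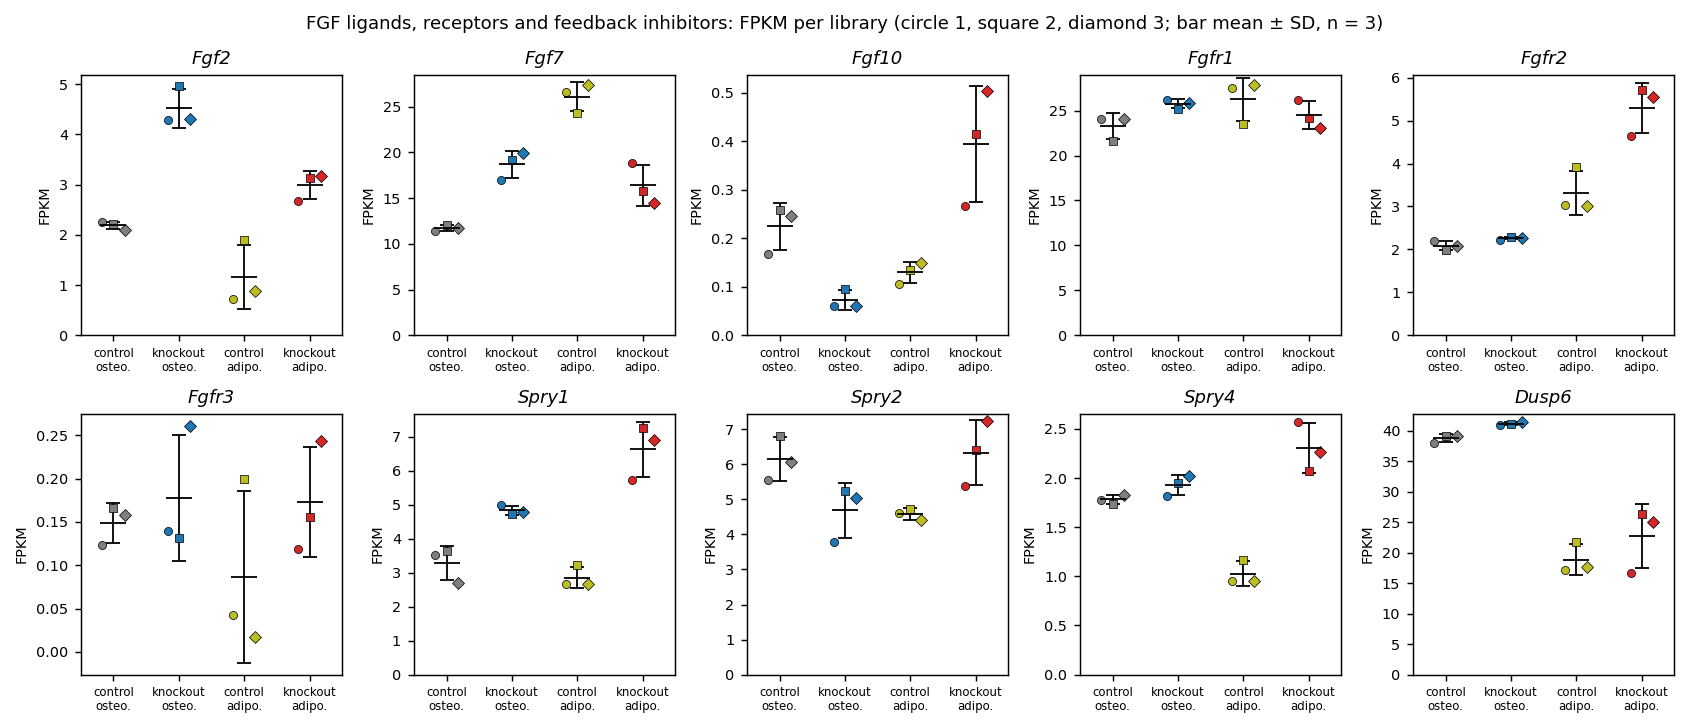
FPKM of the 10 FGF genes (y axis, from 0 except where an error bar runs below it) in the 4 groups (x axis), with a point for each library and the mean ± SD of 3 libraries as bars. Fgf7 rises from control to knockout in osteogenic medium (11.7 to 18.7 FPKM) and falls in adipogenic medium (26.1 to 16.4 FPKM), whereas Fgfr1 stays between 21.6 and 27.8 FPKM in every library.

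RNA of other cell types was looked for in these cultures. Of 16 macrophage markers, all 16 were above 0 in every library. Their summed FPKM was 15100 to 15600 in control and 16500 to 17000 in libraries labelled knockout in osteogenic medium. Lyz2 made up most of this sum, at 8960 to 9360 and 11000 to 11200 FPKM, and was not called there (log2 difference 0.28, adjusted p = 0.657). Its osteogenic groups did not overlap, and the shared spread includes adipogenic control values of 13900, 5460 and 14400 FPKM. Of the 16 markers, 1 was called higher and 3 lower in osteogenic medium, with a median log2 difference of -0.14. Csf1r was lower there, with 296 to 307 FPKM in control and 186 to 188 FPKM in libraries labelled knockout (adjusted p = 0.0136). Summed over the list, adipogenic libraries had 20100, 10400 and 19900 in control and 9960, 8440 and 8640 in libraries labelled knockout, with 2 markers called higher and 9 lower. By this sum control library 2 lay near the libraries labelled knockout, though not by every marker. Its Cd68 was at 861 FPKM, against 517 and 491 in the other controls and 592 to 617 in libraries labelled knockout. The mean correlation of control library 2 with the other libraries of its group was 0.941, against 0.964 to 0.991 for the remaining libraries. The 12 mesenchymal stromal markers were all above 0 in every library and summed to 1330 to 2010 FPKM, mostly from Col1a1, Col1a2 and Itgb1. Of these 12, 10 exceeded 1 FPKM in every library. Lepr was low at 0.449 to 1.13 FPKM, and so was Thy1, with group means of 0.372 to 0.725 FPKM. The 10 endothelial markers summed to 7.06 to 7.51 FPKM in control and 13.3 to 14.4 in libraries labelled knockout in osteogenic medium, and to 6.64 to 7.02 and 10.1 to 12.4 in adipogenic medium, with Cldn5 at 0 in 3 of the 4 groups. The 10 adipocyte markers summed to 253 to 266 FPKM in control and 183 to 199 in libraries labelled knockout in osteogenic medium, and to 113 to 171 and 177 to 225 in adipogenic medium, with Lep at 0 in 3 of the 4 groups. Cebpa, Lpl and Fabp4 made up most of these sums. Adipoq, Plin1, Cidec and Retn stayed at no more than 0.6 FPKM in every library of both media. Of the 5 adipocyte markers that could be tested, limma called 0 higher and 2 lower (Lpl and Fabp4) in osteogenic medium and 3 higher and 0 lower in adipogenic medium. These counts were 0 and 2, and 5 and 0, at an unadjusted p under 0.05, and 0 and 2, and 3 and 0, by limma voom. The 10 osteoblast markers, which share Col1a1 with the stromal list, summed to 1870 to 2160 FPKM in control and 2710 to 2950 in libraries labelled knockout in osteogenic medium, and to 1730 to 1980 and 2020 to 2200 in adipogenic medium. Spp1 made up most of the osteogenic sums, at 1260 to 1500 FPKM in control and 2070 to 2220 FPKM in libraries labelled knockout. Of 9 osteoblast markers tested, 1 was higher (Spp1) and 1 lower (Runx2) in osteogenic medium (median log2 difference -0.21). In adipogenic medium 5 were higher and 0 lower by limma (median 0.50), with 7 and 0 at an unadjusted p under 0.05 and 5 and 0 by limma voom. Between media in libraries labelled knockout, 8 osteoblast markers were higher and 1 lower, where 13.9% and 14% of all tested genes were. For the limma counts between genotypes above, the shares of all tested genes were 4.94% higher and 4.15% lower with osteogenic induction. They were 16.7% and 16.5% with adipogenic induction. These shares do not apply to the counts at an unadjusted p or by limma voom. Lymphoid and erythroid markers (7 genes) summed to at most 0.264 FPKM. In such bulk RNA, fewer cells of a type and less RNA per cell cannot be told apart, and the part of these cells and markers in the results below was not tested.

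**Figure D2:**
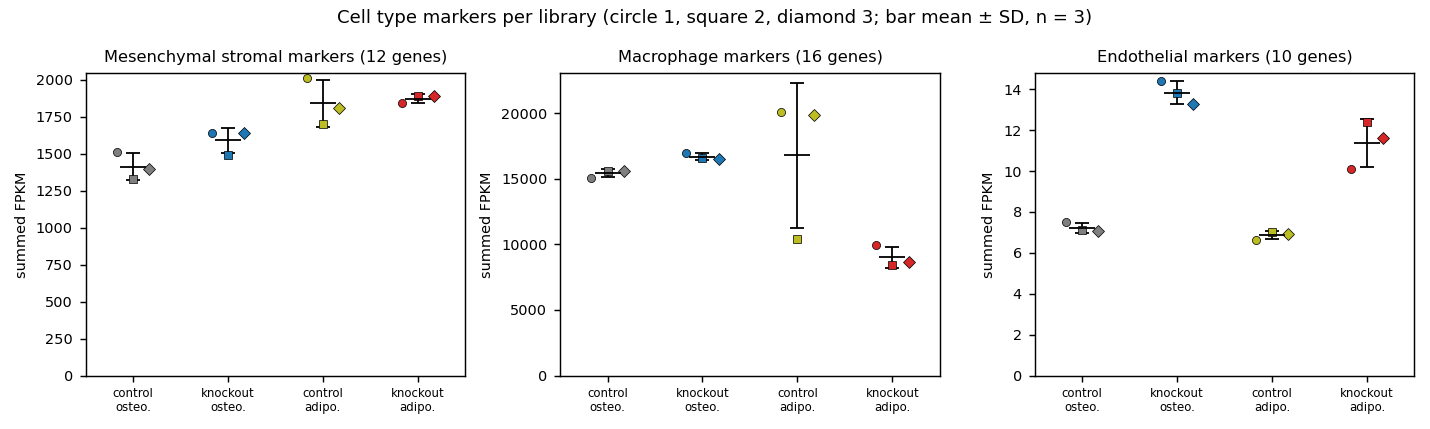
Summed FPKM (y axis, from 0) of mesenchymal stromal, macrophage and endothelial markers in each library of the 4 groups (x axis), with the mean ± SD of 3 libraries. In adipogenic medium the macrophage sum of control library 2 (10400) sits beside the libraries labelled knockout (8440 to 9960), and endothelial sums are higher in libraries labelled knockout in both media.

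In osteogenic medium, the ligands Fgf2 and Fgf7 and the inhibitor Spry1 were higher in libraries labelled knockout, and no tested FGF gene was called lower. Thus 3 of the 8 tested genes were called higher and 0 lower, where 4.94% of all tested genes were called higher and 4.15% lower. At an unadjusted p under 0.05 in limma, 1 gene was lower (Spry2), and limma voom called 1 lower (Fgf10, not tested on FPKM). The median difference was 0.11 over the 8 genes and -0.0064 over all tested genes. In adipogenic medium, 5 genes were called higher (Fgf2, Fgfr2, Spry1, Spry2 and Spry4) and 1 lower (Fgf7), where 16.7% of all tested genes were higher and 16.5% lower. There the median difference was 0.47 over the 8 genes and -0.015 over all tested genes. The genotype effect differed between the media for 5 of the 8 genes, more positive in adipogenic medium for Fgfr2, Spry1, Spry2 and Spry4 (10.9% of all tested genes) and more negative for Fgf7 (9.58%).

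**Figure D3:**
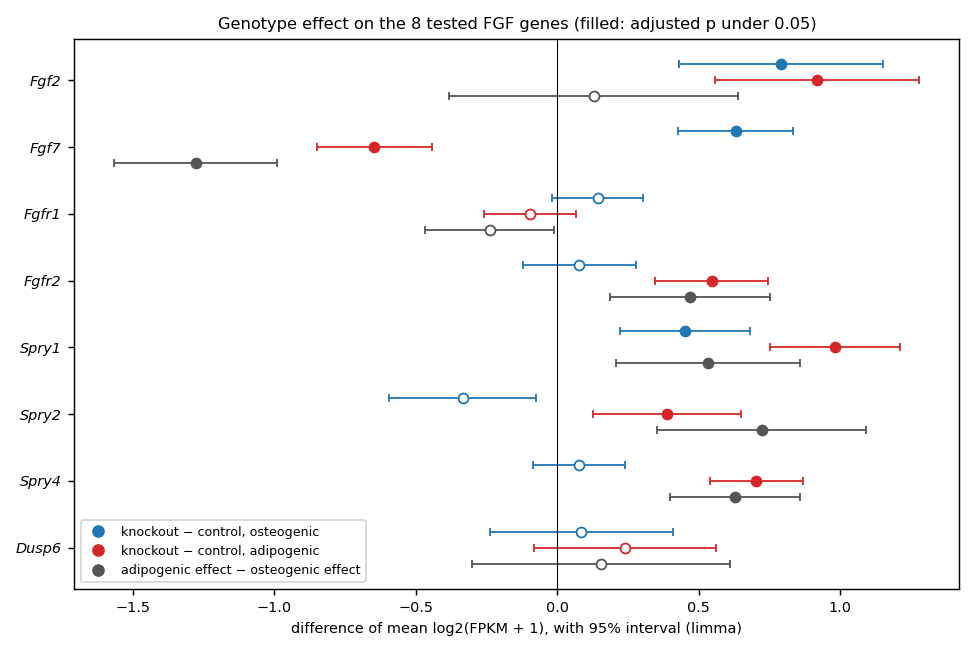
Differences of mean log2(FPKM + 1) (x axis) with 95% intervals from limma for the 8 tested FGF genes, between libraries labelled knockout and control in each medium, and the difference of these effects. Filled points had an adjusted p under 0.05. Fgf7 lies at 0.63 in osteogenic and -0.65 in adipogenic medium, and Fgf2 at 0.79 and 0.92.

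Fgf2 encodes basic FGF, a ligand of several receptors that acts as a mitogen for mesenchymal cells. In osteogenic medium its FPKM was 2.25, 2.21 and 2.1 in control and 4.29, 4.97 and 4.3 in libraries labelled knockout. Every library labelled knockout was above every control library, and the means (2.19 ± 0.0772 and 4.52 ± 0.39 FPKM, SD, n = 3) differed by 2.07-fold. In adipogenic medium the FPKM was 0.718, 1.9 and 0.883 in control and 2.67, 3.13 and 3.18 in libraries labelled knockout. The groups again did not overlap, and control library 2, well above the other controls, lay closest to the libraries labelled knockout. The log2 difference was 0.79 (SE 0.162, adjusted p = 0.015) in osteogenic and 0.92 (SE 0.162, adjusted p = 0.00219) in adipogenic medium, and 1.15 (adjusted p = 3.07e-06) without control library 2. The difference between these effects was 0.13 with a 95% interval of -0.38 to 0.64 (adjusted p = 0.723). It was 0.36 and passed the test (adjusted p = 0.0246) without adipogenic control library 2.

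The osteogenic Fgf2 call did not survive the loss of control library 2 or 3 or of knockout library 2 (log2 difference 0.80, 0.77 and 0.73, adjusted p = 0.0553, 0.0554 and 0.0594), nor rescaling to TPM, the same sum of values per library (0.94, adjusted p = 0.0961). The exons of Fgf2 share 640 bases (9.4% of its exonic length) with Nudt6 on the opposite strand. Since the use of strand in counting is not stated, a share of the fragments may belong to either gene. Nudt6 was at 0.753 to 1.12 FPKM in osteogenic medium, below Fgf2 in every library there. It was at 0.552 to 1.71 FPKM in adipogenic medium, where it exceeded Fgf2 in control library 1.

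Fgf7 encodes keratinocyte growth factor, which stromal cells secrete and which binds the epithelial form of FGFR2. Its FPKM in osteogenic medium was 11.4, 12.1 and 11.7 in control and 17, 19.2 and 19.9 in libraries labelled knockout. With adipogenic induction it was 26.6, 24.3 and 27.4 in control and 18.9, 15.8 and 14.5 in libraries labelled knockout. The groups did not overlap in either medium, but their order was opposite, as the plot of FPKM by library shows. The mean was 1.6-fold higher in libraries labelled knockout in osteogenic medium (log2 difference 0.63, SE 0.0916, adjusted p = 0.00255). In adipogenic medium it was 1.59-fold higher in control (log2 difference -0.65, SE 0.0916, adjusted p = 0.000626). The change of the genotype effect between media was -1.28 (SE 0.129, adjusted p = 0.000157), and each call held when any single library was left out.

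The control libraries spanned the whole range of Fgf7, at 11.7 ± 0.356 FPKM (SD, n = 3) in osteogenic and 26.1 ± 1.64 FPKM in adipogenic medium. The libraries labelled knockout had 18.7 ± 1.52 and 16.4 ± 2.27 FPKM, and overlapped between the media. The ratio of Fgf7 to Fgf2 FPKM within a library was 5.04 to 5.57 in control and 3.87 to 4.63 in libraries labelled knockout in osteogenic medium. Adipogenic libraries had ratios of 37.1, 12.8 and 31 in control and 7.07, 5.04 and 4.55 in libraries labelled knockout. The ratio was thus highest in all 3 adipogenic control libraries, with library 2 the lowest of them.

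Fgf10, a ligand that drives limb bud outgrowth and promotes fat cell development, was scarce. In osteogenic medium it was at 0.168, 0.259 and 0.246 FPKM in control and at 0.0605, 0.0961 and 0.0597 FPKM in libraries labelled knockout. With adipogenic induction the values were 0.106, 0.135 and 0.148 FPKM in control and 0.266, 0.415 and 0.503 FPKM in libraries labelled knockout. The groups were apart in both media and in opposite order. These values rest on 54 and 18 recovered fragments per group in osteogenic medium, and on 32 and 103 in adipogenic medium.

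The ratio of Fgf10 fragments, adjusted for depth, was 0.323 in osteogenic medium, with an exact binomial 95% interval of 0.178 to 0.56 that covers counting error only. It was 3.04 (2.03 to 4.68) in adipogenic medium. Fgf10 did not enter the test on FPKM. In limma voom on the recovered fragments, an alternative added after seeing the data, its log2 difference was -1.56 (SE 0.401, adjusted p = 0.0364) in osteogenic and 1.52 (SE 0.324, adjusted p = 0.00558) in adipogenic medium. The difference between these was 3.09 (adjusted p = 0.00244). With the filter on low values left off, the osteogenic difference in log2(FPKM + 1) missed the threshold (adjusted p = 0.144) and the adipogenic one passed it (adjusted p = 0.00849). None of the 19 other FGF ligands examined reached the level for the test on FPKM. The most abundant were Fgf11, an intracellular member of the family, at 0.437 to 1.18 FPKM, and Fgf13, of the same subfamily, at 0.316 to 1.29 FPKM. In limma voom Fgf13 was higher in libraries labelled knockout in both media (log2 difference 1.14, adjusted p = 0.00843, and 0.89, adjusted p = 0.00396), and Fgf1 was lower in adipogenic than in osteogenic medium in libraries labelled knockout (-1.52, adjusted p = 0.0133).

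Fgfr1, the receptor that predominates in mesenchymal progenitors, was the most abundant FGF receptor in every library. In osteogenic medium it was at 24.1, 21.6 and 24.1 FPKM in control and at 26.2, 25.2 and 25.9 FPKM in libraries labelled knockout. In adipogenic medium it was at 27.5, 23.5 and 27.8 FPKM and at 26.2, 24.2 and 23.1 FPKM, with overlapping groups. The log2 difference was 0.14 (95% interval -0.019 to 0.30, adjusted p = 0.28) in osteogenic and -0.10 (-0.26 to 0.065, adjusted p = 0.333) in adipogenic medium. The second value passed the test at -0.17 (adjusted p = 0.0366) without control library 2. It turned to 0.087 (adjusted p = 0.383) when rescaled to TPM.

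Fgfr2, whose splice forms serve epithelium and mesenchyme and whose mesenchymal form takes part in bone formation, was far below Fgfr1 in every library. In osteogenic medium it was at 2.2, 1.99 and 2.07 FPKM in control and at 2.23, 2.28 and 2.26 FPKM in libraries labelled knockout. The groups lay side by side within a narrow range, and the log2 difference was 0.077 (95% interval -0.12 to 0.28, adjusted p = 0.684). The corresponding adipogenic values were 3.04, 3.91 and 3.01 FPKM and 4.64, 5.72 and 5.54 FPKM. The groups did not overlap, with control library 2 closest to the others, and the means (3.32 ± 0.514 and 5.3 ± 0.577 FPKM, SD, n = 3) differed by 1.6-fold (log2 difference 0.55, SE 0.0897, adjusted p = 0.00144).

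The genotype effect on Fgfr2 was larger in adipogenic medium by 0.47 (SE 0.127, adjusted p = 0.0275). That call held in 3 of the 12 fits that left out a library, namely without osteogenic control library 2, adipogenic control library 2 or adipogenic knockout library 1, and the adjusted p was at most 0.0684 in the other fits. It was also lost under TPM (adjusted p = 0.0571) and with no filter on low values (adjusted p = 0.0626). Among Fgfr1, Fgfr2 and Fgfr3 together, Fgfr2 took 7.8% to 8.36% of the FPKM in the osteogenic libraries, 9.93%, 14.2% and 9.75% in adipogenic control, and 15%, 19% and 19.2% in adipogenic libraries labelled knockout. The annotated exons of Fgfr2 share 314 bases (3%) with Ctbp2 on the same strand, a gene at 7.23 to 9.07 FPKM.

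Fgfr3, which restrains chondrocyte growth in the growth plate, stayed under the level for testing. It was at 0.123 to 0.166 FPKM in control and 0.131 to 0.261 FPKM in libraries labelled knockout in osteogenic medium. Under adipogenic conditions it was at 0.0425, 0.2 and 0.0172 FPKM in control and at 0.119, 0.156 and 0.243 FPKM in libraries labelled knockout. The groups overlapped in both media, and 2 to 30 fragments per library stood behind the adipogenic control values. The depth-adjusted ratio of fragments was 1.19 (95% interval 0.828 to 1.73, counting error only) in osteogenic and 1.79 (1.18 to 2.74) in adipogenic medium, and in limma voom neither difference passed (adjusted p = 0.887 and 0.121).

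Spry1 encodes a Sprouty protein, which blocks signaling between FGF receptors and ERK. In osteogenic medium it was at 3.51, 3.64 and 2.71 FPKM in control and at 4.98, 4.74 and 4.78 FPKM in libraries labelled knockout. Adipogenic control libraries had 2.68, 3.22 and 2.66 FPKM, and those labelled knockout 5.72, 7.25 and 6.92 FPKM. All libraries labelled knockout were above all control libraries of the same medium. The means differed by 1.47-fold in osteogenic (log2 difference 0.45, SE 0.103, adjusted p = 0.0234) and by 2.32-fold in adipogenic medium (log2 difference 0.98, SE 0.103, adjusted p = 0.000107).

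The adipogenic effect on Spry1 exceeded the osteogenic one by 0.53 (SE 0.146, adjusted p = 0.0289). The osteogenic call held only without control library 2 (adjusted p = 0.0393) and was lost on leaving out any of the other 5 libraries, with a log2 difference of 0.35 to 0.49 and an adjusted p of 0.0507 to 0.0887. It was also lost under TPM (adjusted p = 0.133) and with no filter (adjusted p = 0.0548). The difference between media held in 3 of 12 such fits, without osteogenic control library 3, adipogenic control library 2 or adipogenic knockout library 1, and the adjusted p was at most 0.0706 in the others and 0.0642 with no filter. The exons of Spry1 share 24.4% of their length with Gm42922 on the opposite strand, which was at no more than 0.069 FPKM.

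Spry2, another Sprouty gene, had genotype effects that differed between the media. In osteogenic medium it was at 5.57, 6.81 and 6.07 FPKM in control and at 3.79, 5.24 and 5.05 FPKM in libraries labelled knockout. With adipogenic induction the values were 4.61, 4.74 and 4.41 FPKM in control and 5.38, 6.4 and 7.24 FPKM in libraries labelled knockout. The groups were apart in each medium, the libraries labelled knockout below control in the first and above it in the second. The log2 difference was -0.34 (SE 0.117, adjusted p = 0.113), which missed the threshold, in osteogenic medium and 0.39 (SE 0.117, adjusted p = 0.0295) in adipogenic medium. The difference between these effects, 0.72 (SE 0.166, adjusted p = 0.0135), passed in every fit that left out a library. The adipogenic call was lost without control library 1 or 3 or knockout library 2 or 3 (log2 difference 0.39, 0.36, 0.38 and 0.30, adjusted p = 0.069, 0.084, 0.0784 and 0.111), with no filter (adjusted p = 0.0641) and with only the groups compared (adjusted p = 0.0628).

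Spry4, a further Sprouty gene, was at 1.78, 1.74 and 1.83 FPKM in control and at 1.82, 1.95 and 2.02 FPKM in libraries labelled knockout in osteogenic medium. These ranges touched, and the log2 difference was 0.076 (95% interval -0.087 to 0.24, adjusted p = 0.606). The corresponding adipogenic values were 0.955, 1.17 and 0.955 FPKM and 2.57, 2.07 and 2.27 FPKM. There every library labelled knockout was above every control library, by 2.24-fold in the mean (log2 difference 0.70, SE 0.0732, adjusted p = 0.000102). The effects differed between media by 0.63 (SE 0.104, adjusted p = 0.00258), and both calls held without any single library.

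Summed over Spry1, Spry2 and Spry4, the FPKM was 10.6 to 12.2 in control and 10.6 to 11.9 in libraries labelled knockout in osteogenic medium, with nearly the same range. In adipogenic medium the sum was 8.02 to 9.13 in control and 13.7 to 16.4 in libraries labelled knockout. The share of Spry1 in this sum was 25.5% to 32.3% in osteogenic control and 39.7% to 47% in osteogenic libraries labelled knockout. It was 32.5% to 35.3% and 41.8% to 46.1% in adipogenic medium, so that libraries labelled knockout had the larger Spry1 share in both media.

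**Figure D4:**
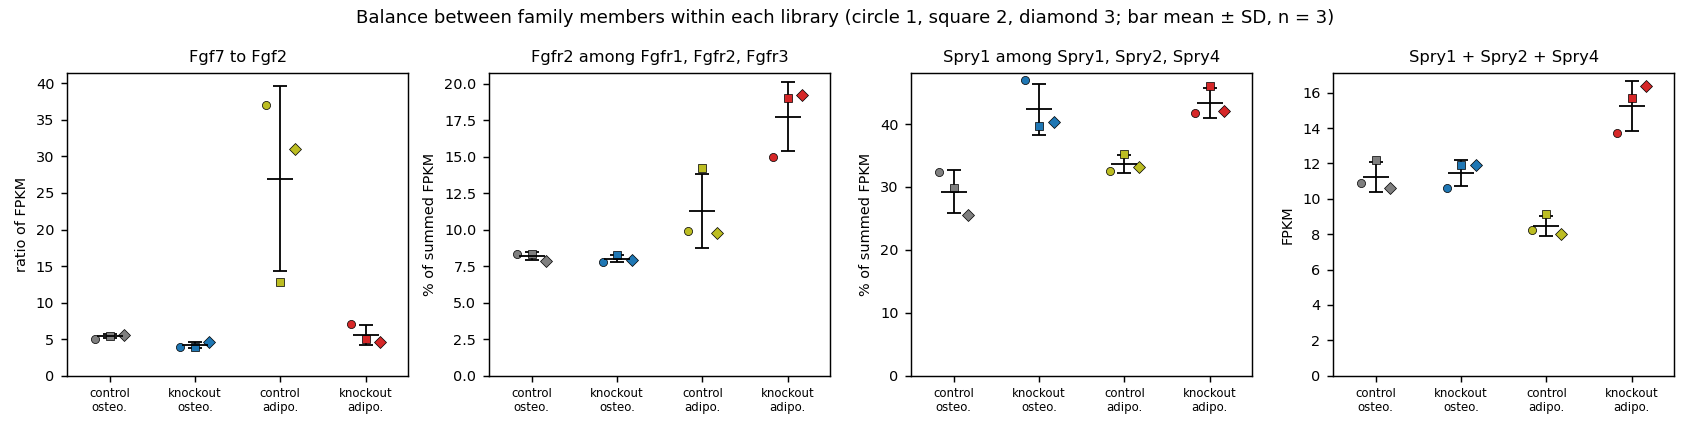
Balance within families in each library (x axis, 4 groups, mean ± SD of 3 libraries): the ratio of Fgf7 to Fgf2 FPKM, the percentage of Fgfr2 among Fgfr1, Fgfr2 and Fgfr3, the percentage of Spry1 among Spry1, Spry2 and Spry4, and the summed FPKM of these Sprouty genes, all from 0. The Fgf7 to Fgf2 ratio is highest in adipogenic control (12.8 to 37.1), and the Sprouty sum is highest in adipogenic libraries labelled knockout (13.7 to 16.4 FPKM).

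Dusp6, which encodes the ERK phosphatase often read as an output of FGF signaling, was the most abundant of the 10 genes in osteogenic medium. It was at 38, 39.1 and 39.2 FPKM in control and at 40.9, 41.1 and 41.5 FPKM in libraries labelled knockout there. The groups lay next to each other without overlap, and the log2 difference was 0.085 (95% interval -0.24 to 0.41, adjusted p = 0.794). Over the alternative limma fits this adjusted p ranged from 0.0542 to 0.909. The SDs were 0.69 and 0.32 FPKM in osteogenic medium, against 2.54 and 5.26 FPKM in adipogenic medium, and the interval rests on the spread of all groups. Under adipogenic conditions Dusp6 was at 17.2, 21.8 and 17.6 FPKM in control and at 16.7, 26.4 and 25.1 FPKM in libraries labelled knockout. These groups overlapped, because knockout library 1 was the lowest of all and control library 2 the highest of the controls. The log2 difference was 0.24 (95% interval -0.084 to 0.56, adjusted p = 0.23), and it became 0.44 (adjusted p = 0.00582) without knockout library 1. The effects did not pass a difference between media (0.15, 95% interval -0.30 to 0.61, adjusted p = 0.627).

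The medium itself moved several of these genes. In control libraries, adipogenic against osteogenic medium, Fgf7 and Fgfr2 were higher and Fgf2, Spry4 and Dusp6 lower. These were 2 and 3 of the 8 tested genes, where 10.5% of all tested genes were higher and 12.3% lower. Fgf7 differed by 2.23-fold (log2 difference 1.09, adjusted p = 0.000135) and Fgfr2 by 1.59-fold (0.48, adjusted p = 0.00639). Dusp6 was 2.06-fold higher in osteogenic medium (-1.01, adjusted p = 0.00177), Fgf2 1.87-fold (-0.60, adjusted p = 0.0275) and Spry4 1.74-fold (-0.46, adjusted p = 0.00297). The Fgf2 call held only without adipogenic control library 2 (-0.83, adjusted p = 3.2e-05), and without any other library the adjusted p was 0.0649 to 0.101. With only the groups compared, neither Fgf2 (adjusted p = 0.138) nor Fgfr2 (adjusted p = 0.0601) passed. Without that same library, Fgfr1 at 0.24 (adjusted p = 0.00774) and Spry2 at -0.37 (adjusted p = 0.042) were also called.

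In libraries labelled knockout, adipogenic against osteogenic medium, Fgfr2, Spry1 and Spry2 were higher (3 of 8, where 13.9% of all tested genes were) and Dusp6 was lower (1 of 8, where 14% were). Fgfr2 differed by 2.35-fold (log2 difference 0.95, SE 0.0897, adjusted p = 6.26e-05), and its 6 values did not overlap between the media. Dusp6 was 1.81-fold higher in osteogenic medium (-0.86, adjusted p = 0.00194). Spry1 differed by 1.37-fold (0.38, adjusted p = 0.0204) and Spry2 by 1.35-fold (0.37, adjusted p = 0.0399), and each of these calls held in 2 of the 6 fits that left out a library. Spry1 passed without knockout library 1 of either medium. Spry2 passed without osteogenic knockout library 2 or adipogenic knockout library 1. Elsewhere the adjusted p was at most 0.0737 for Spry1 and 0.143 for Spry2. Fgf2 had lower values in all 3 adipogenic libraries labelled knockout but missed the threshold (-0.47, adjusted p = 0.0557), as did Fgf7 (-0.19, adjusted p = 0.157), which passed without adipogenic knockout library 1 (-0.29, adjusted p = 0.0266). The comparisons between media share their libraries with the comparisons between genotypes.

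The other genes of the FGF pathway were 88 in 6 lists, and 56 of them could be tested. In osteogenic medium 9 were called higher and 1 lower, with a median log2 difference of 0.079, where 4.94% of all tested genes were higher and 4.15% lower. In adipogenic medium 14 were higher and 10 lower, with a median of 0.049, where 16.7% and 16.5% of all tested genes were. The difference between media was called positive for 7 and negative for 14, where 10.9% and 9.58% of all tested genes were.

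Receptors and co-receptors other than the members included 2 tested genes of 7. Fgfrl1, which encodes a receptor without a kinase domain, was higher in libraries labelled knockout in osteogenic medium (log2 difference 0.49, adjusted p = 0.00277) and at -0.021 (adjusted p = 0.849) in adipogenic medium. Flrt2, which encodes a membrane protein that binds FGF receptors, was at 5.47, 4.55 and 5.8 FPKM in adipogenic control and at 10.7, 10.1 and 11.2 FPKM in libraries labelled knockout. Its groups were well apart (log2 difference 0.90, adjusted p = 2.44e-05), whereas in osteogenic medium the difference was -0.11 (adjusted p = 0.436). For both genes the effects differed between media (adjusted p = 0.00697 for Fgfrl1 and 0.000173 for Flrt2).

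Carriers of the ligands and the enzymes of heparan sulfate, on which FGFs depend to bind their receptors, had called genes in both media. Of 18 tested, limma called 5 higher and 0 lower in osteogenic medium, beside 4.94% and 4.15% of all tested genes, and 8 higher and 4 lower in adipogenic medium, beside 16.7% and 16.5%. In osteogenic medium the counts were 10 and 1 at an unadjusted p under 0.05, and 5 and 0 by limma voom. The shares above do not apply to these other counts. Gpc1, encoding the heparan sulfate proteoglycan glypican-1, was at 27.9, 26.9 and 29.3 FPKM in osteogenic control and at 47.5, 44.7 and 49.7 FPKM in libraries labelled knockout. Adipogenic control libraries had 46.3, 44.3 and 45.2 FPKM, and those labelled knockout 21.4, 21.4 and 21.7 FPKM. Like Fgf7, it was higher in libraries labelled knockout in osteogenic medium (log2 difference 0.73, adjusted p = 2.72e-05) and lower in adipogenic medium (-1.04, adjusted p = 7.14e-07), with a change of -1.77 (adjusted p = 7.48e-07). Hs6st2 (0.63), Sulf1 (0.43) and Gpc4 (0.40) were also higher in osteogenic medium. Hs6st2 adds 6-O-sulfate to heparan sulfate, and Sulf1 and Sulf2 encode enzymes that remove it. In adipogenic medium Sdc1, encoding syndecan-1, was lower (-1.17, adjusted p = 0.0104), and Sulf2 (0.83, adjusted p = 0.0165) and Fgfbp3 (0.77, adjusted p = 0.00638), encoding an FGF-binding carrier, were higher. Control library 2 lay next to the libraries labelled knockout for Sdc1 (60.8 FPKM, against 157 and 143 in the other controls and 44.6 to 53.5 in libraries labelled knockout) and for Sulf2 (20.2 FPKM, against 9.31 and 9.5, and 21 to 24.1). Without it the log2 difference was -1.59 for Sdc1 (adjusted p = 3.61e-07), 1.18 for Sulf2 (adjusted p = 2.49e-07) and 0.99 for Fgfbp3 (adjusted p = 6.01e-05).

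Of 15 tested adaptor and MAP kinase genes, 1 was higher in osteogenic medium, beside 4.94% of all tested genes. It was Plcg1 (log2 difference 0.32, adjusted p = 0.00214), a phospholipase bound by the receptors. In adipogenic medium 1 was higher and 2 were lower, beside 16.7% and 16.5%, so that this list had no larger share of called genes than all tested genes there. Hras was higher (0.49, adjusted p = 0.00173), and the adaptor gene Grb2 (-0.43, adjusted p = 9.52e-05) and Mapk3, which encodes ERK1 (-0.33, adjusted p = 0.000191), were lower.

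Of 8 tested feedback inhibitors outside the members, none was called in osteogenic medium by limma, where 1 (Spred1, lower) had an unadjusted p under 0.05 and limma voom called 0. In adipogenic medium Dusp5 (0.54, adjusted p = 0.00155) and Errfi1 (0.35, adjusted p = 0.0356) were higher, and Dusp4 and Spred1 (-0.28, adjusted p = 0.0075) were lower, beside 16.7% and 16.5% of all tested genes. Without control library 2 the difference of Errfi1 was 0.19 (adjusted p = 0.0108). Dusp4 and Dusp5 encode nuclear phosphatases of MAP kinases. Dusp4 was at 26.8, 20.3 and 29.3 FPKM in control and at 11, 7.24 and 7.91 FPKM in libraries labelled knockout in adipogenic medium. Its groups did not overlap (log2 difference -1.45, adjusted p = 8.54e-05), in contrast to those of Dusp6.

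Early response and ETS target genes, which are transcribed when ERK is active, gave 2 higher (Egr2, 0.80, adjusted p = 0.0218, and Ier2, 0.27, adjusted p = 0.00854) and 1 lower (Myc, -0.20, adjusted p = 0.0169) of 13 in osteogenic medium, beside 4.94% and 4.15% of all tested genes. In adipogenic medium Ccnd1 (0.87, adjusted p = 0.0205) and Jun (0.13, adjusted p = 0.0391) were higher, and Ier3 (-1.50, adjusted p = 0.0284) and Phlda1 (-0.77, adjusted p = 0.00978) were lower, beside 16.7% and 16.5%. Control library 2 lay near the libraries labelled knockout in Ccnd1, at 74.3 FPKM against 32.6 and 33.9 in the other controls and 78.4 to 81.4 in libraries labelled knockout. For Ier3 it was at 39.5 FPKM, against 151 and 156 in the other controls, and within the 25.9 to 51.9 FPKM of libraries labelled knockout, so that these groups overlapped. Without it the log2 difference was 1.25 for Ccnd1 (adjusted p = 2.07e-08), -2.15 for Ier3 (adjusted p = 4.1e-05) and -1.03 for Phlda1 (adjusted p = 1.23e-05), and the call of Jun was lost (0.11, adjusted p = 0.0503). Etv5, an ETS factor that FGF signaling induces in many tissues, was not called in either medium (0.21, adjusted p = 0.49, and -0.18, adjusted p = 0.421). Nor was Etv4, another such factor (0.36, adjusted p = 0.0678, and 0.0072, adjusted p = 0.967). In osteogenic medium, however, both had higher values in every library labelled knockout than in every control library. Etv5 was at 20.7 to 22.1 FPKM in control and 24.7 to 25.6 FPKM in libraries labelled knockout there, and Etv4 at 3.66 to 3.95 and 4.65 to 5.82 FPKM. The adipogenic groups overlapped for both genes. The missing osteogenic calls thus do not show that these genes were unchanged.

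**Figure D5:**
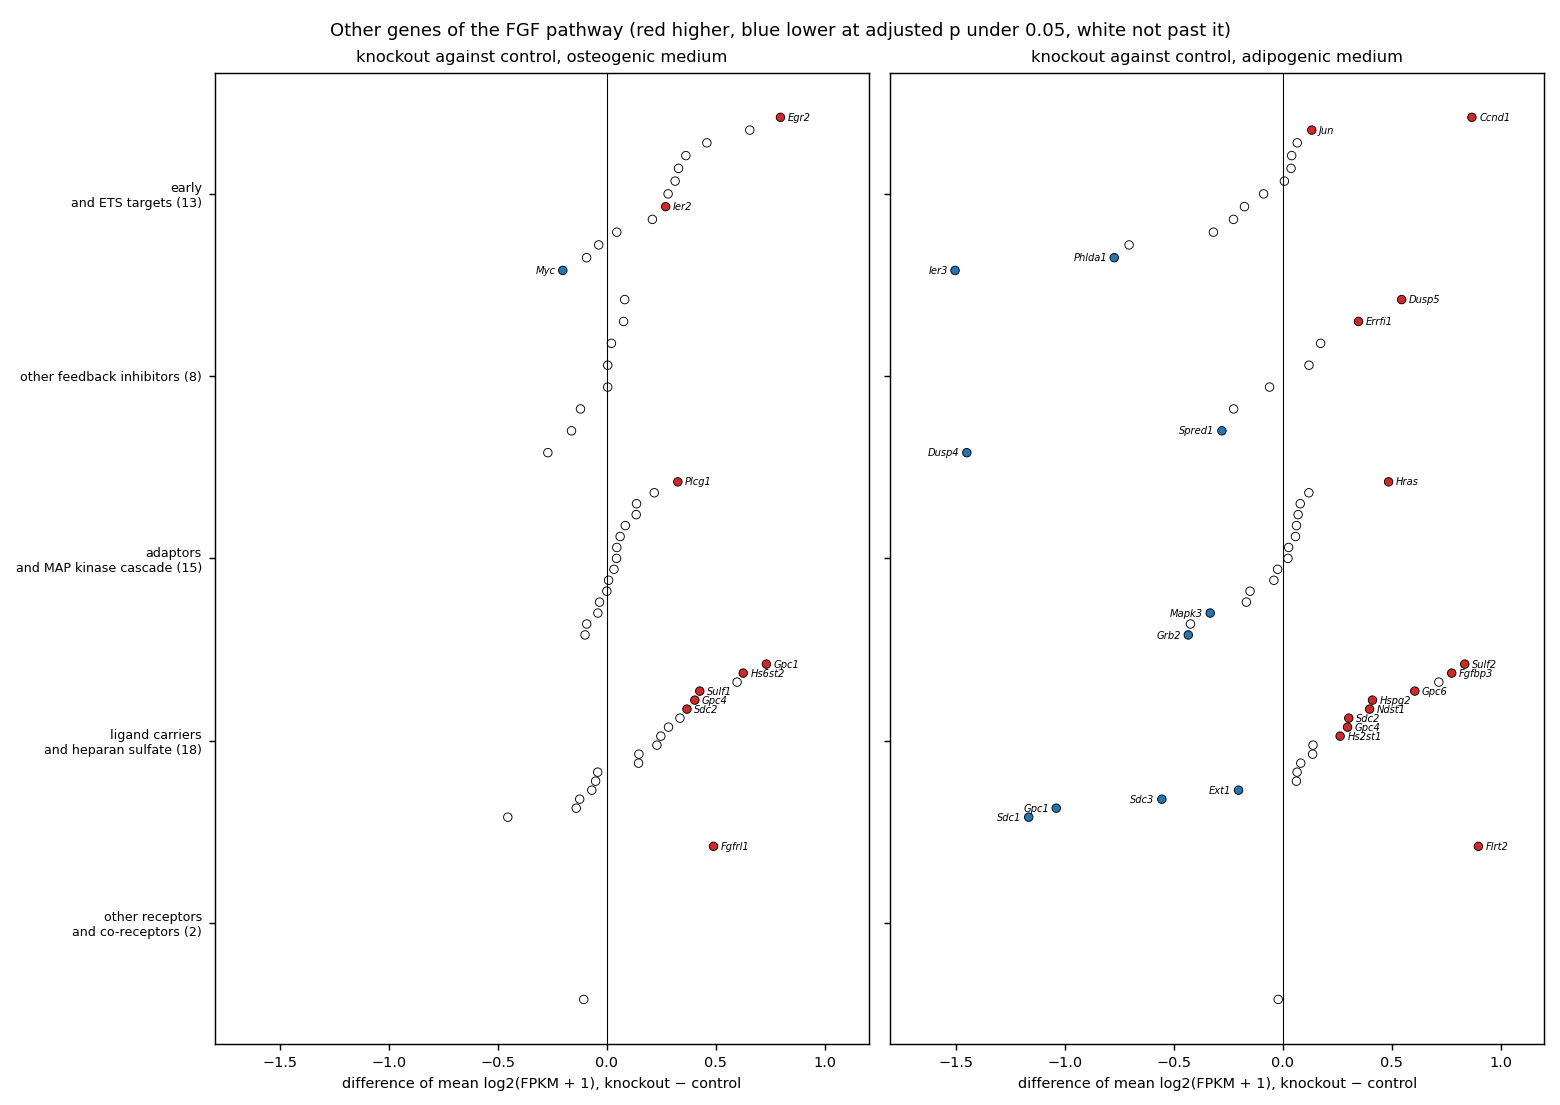
Differences of mean log2(FPKM + 1) between libraries labelled knockout and control (x axis) for tested FGF pathway genes outside the 10 members, grouped by role (y axis, number tested in brackets), in osteogenic (left) and adipogenic medium (right). Coloured and named points had an adjusted p under 0.05. Gpc1 lies at 0.73 on the left and -1.04 on the right, and Dusp4 at -1.45 on the right.

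The genes whose log2(FPKM + 1) followed the members of widest range most closely over the 12 libraries were named by Pearson's r, as a description. For Fgf2 they were Aig1 (r = 0.979), Cxcr6 (0.97) and Sulf2 (0.969). For Dusp6 they were Fasn (0.978), Mgat5 (0.977) and Crat (0.975), and for Fgf7 Gas1 (0.962), Actg1 (0.959) and Cyb5r3 (0.955). The 12 libraries share the 2 media and genotypes, so r also carries the differences between groups.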

How the data were processed

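RNA-seq libraries of MSCs were compared in 4 groups of 3, assigned by genotype and treatment labels. The authors deposited a single table of FPKM per gene and library. The submitters' processing notes name Bowtie 0.12.2 and the build mm9, whereas the paper lists HISAT2 and Ballgown, so the aligner and build behind the table are uncertain. Strand use is not given in the sources used here. Identifiers were matched to GENCODE M21 (GRCm38), and 54409 of 54532 (99.8%) had a symbol. No value column was outside the 12 libraries.

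Fragments were recovered from the steps between low FPKM values, of which 98.2% to 98.4% under 30 fragments were whole within 0.02, against 4% by chance. They were used for ratios of fragments and for limma voom. A count of 3 fragments on 1 kb corresponds to 0.143 to 0.185 FPKM. Intervals cover counting error only.

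Log2(FPKM + 1) was fitted in R 4.3.3 with limma 3.58.1 (trend, 4 group means, all 12 libraries), for genes of at least 1 FPKM in 3 libraries, and p-values were adjusted by Benjamini-Hochberg over 12871 genes. The procedure was also run on simulated fragments with the same spread in every group. That run cannot show how the fit behaves where groups differ in spread, as the adipogenic and osteogenic libraries do. Alternatives were a pseudocount of 0.1, no filter, TPM, median-ratio scaling, no trend, only the groups compared, a replicate block and each library left out. Limma voom on genes with at least 10 recovered fragments (15624 genes), and a fit without the least alike library of each adipogenic group, were added after seeing the data. Libraries of equal number were not treated as pairs in the main fit, since the labels do not say what the number stands for. A pairing is not excluded, and the replicate block is the alternative that allows for it.

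Named genes were the 10 members, Chd7, up to 4 called genes of each pathway list with the largest change, the 3 genes most correlated with each of the 3 members of widest range, and genes whose exons overlap a member. Other genes named, among them pathway genes that were not called, FGF ligands too low to test and neighbours of Fgf2, were chosen after their values were seen. Some genes of the adaptor and MAP kinase list are not reported here and enter none of its counts. The members and lists were chosen with earlier results of these data known. Figures were drawn in Python with matplotlib.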

Additional observations from a re-analysis of the deposited data

Results flagged for a closer look

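The genotype effect differed between the media, by the interaction term of limma on log2(FPKM + 1), for 5 of the 8 tested FGF genes. Of all tested genes, 10.9% had a more positive and 9.58% a more negative effect in adipogenic medium. With 1 library left out, the calls of Fgfr2 and Spry1 each held in 3 of 12 fits. Those of Fgf7, Spry2 and Spry4 held in all 12. The effect in adipogenic medium minus that in osteogenic medium was -1.28 for Fgf7, 0.47 for Fgfr2, 0.53 for Spry1, 0.72 for Spry2 and 0.63 for Spry4. For Fgf7 the sign of the called effect turned around. For Fgfr2, Spry4 and Spry2 only the adipogenic effect was called, and for Spry1 both were. Adipogenic control library 2 lay between the other controls and the libraries labelled knockout for each of these 5 genes. Its macrophage marker sum was 10400, against 20100 and 19900 in the other controls. The part of that library and of the macrophage sum was not tested. Without that library the differences were -1.33 for Fgf7, 0.57 for Fgfr2, 0.60 for Spry1, 0.74 for Spry2 and 0.68 for Spry4.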

How the results depend on the processing

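Between 3 and 6 FGF genes were called in each comparison, where 4.15% to 16.7% of all tested genes were called in each direction. Of 312 values under alternatives that kept all libraries, 291 kept their direction and side of the threshold. Of 288 with 1 library left out, 237 did, while 43 lost the call, 7 gained one and 1 changed sign. These totals include values not called in the main fit, which cannot lose a call. The osteogenic calls of Fgf2, Fgf7 and Spry1 held in 3, 6 and 1 of 6 fits that left out a library. In adipogenic medium only the call of Spry2 was lost in such fits, holding in 2 of 6. For the difference between media, the calls of Fgfr2 and Spry1 held in 3 of 12, and those of Fgf7, Spry2 and Spry4 in 12. Rescaling to TPM left 1 called gene in osteogenic medium and 2 between media in libraries labelled knockout, and turned Fgfr1 in adipogenic medium to 0.087. It also moved the median difference of all genes from -0.015 to 0.146 in adipogenic medium, from -0.0028 to 0.165 for the difference between media and from 0.0056 to -0.106 between media in control. Relative to that shift Fgfr1 stayed below the median gene. With only the groups compared, 3 genes were called between media in control. For Fgf10 and Fgfr3, differences in log2(FPKM + 1) depended on the pseudocount, which at 0.1 took the Fgf10 difference to -0.91 in osteogenic and 1.08 in adipogenic medium.

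With the replicate number as a block, 3, 6, 5, 6 and 4 FGF genes were called in osteogenic medium, in adipogenic medium, for the difference between media, and between media in control and in libraries labelled knockout, against 3, 6, 5, 5 and 4 without it. Deviations of equal-numbered libraries correlated at 0.466, 0.397 and -0.286 between genotypes in adipogenic medium and at -0.0558 to 0.0859 otherwise. The block took the count of all genes called from 1170 to 744 in osteogenic medium and from 2935 to 1943 between media in control.

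Leaving out 1 library at a time, the number of FGF genes called was 1 to 2 in osteogenic medium, 5 to 7 in adipogenic medium, 3 to 7 for the difference between media, 4 to 7 between media in control and 2 to 5 in libraries labelled knockout, and Fgf2's difference between media ranged from -0.020 to 0.36. Over all genes, the count called ranged from 532 to 670 in osteogenic medium, where each fit had fewer libraries, from 2791 to 6569 in adipogenic medium, from 1798 to 5434 for the difference between media and from 1361 to 6156 between media in control, each time highest without adipogenic control library 2 where that library was in the comparison. TPM gave 528 genes in osteogenic medium. Fits of only the groups compared gave 3418 in osteogenic medium, 1671 in adipogenic medium and 490 between media in control. The cause of these changes was not tested. Adipogenic control library 2 and adipogenic knockout library 1, which correlated least with the rest of their groups (mean r of 0.941 and 0.981), were also left out together, a choice made after seeing the data. The number of FGF genes called was then 8 in adipogenic medium, 8 for the difference between media, 7 between media in control and 6 in libraries labelled knockout, where 52%, 45.9%, 50.2% and 42.4% of all tested genes were called in that fit. Removing the least alike libraries narrows the spread within groups by construction, and these counts are no support for the calls.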
